A study of Mus musculus with 6 samples.

Results

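The set described here holds 32 genes that mark macrophages and related myeloid cells, taken from a list of gene symbols and found in the array files by the symbol printed for each probe (Adgre1 under its older symbol Emr1). It is a small share of the 21888 genes tested on these arrays. Where a gene had several probes, the brightest by mean signal stood for it, and 31 of the 32 genes had such a probe above background. The exception was Cd163, a scavenger receptor for haemoglobin, whose probe on chromosome 6 was well above background on 0 of the 3 H19 KO arrays and 0 of the 3 wildtype arrays, so that no level and no difference are given for it.

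The study measured total RNA of the cardiomyocyte fraction of mouse hearts on 1-colour Agilent arrays. There were 3 samples from H19 KO mice and 3 from wildtype littermates. All were adult animals that had undergone transverse aortic constriction (TAC), an operation that narrows the aorta and makes the left ventricle pump against a raised pressure, and all samples were taken 6 weeks after it. The heart cells were freed by perfusing the heart backwards through the aorta, a method that yields mostly cardiomyocytes, and no sample of an unoperated heart is analysed here. The labels do not describe the H19 allele, the age of the animals in numbers, or whether a sample was 1 animal or several, so the p-values reflect only how far these 6 samples spread.

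Macrophages are phagocytes of the tissue. The heart holds resident macrophages that settle before birth and renew themselves locally, and others that arise from blood monocytes, both kept alive by signals through the receptor Csf1r. They clear dying cells, take up debris and pathogens through scavenger and Fc receptors, supply complement C1q and lysosomal enzymes, and are known to change in number in pressure-overloaded hearts. Most of the 32 genes are not products of cardiomyocytes, so in this fraction their signal is a readout of RNA from other cells. In such a bulk sample, fewer cells of a type and less RNA per cell cannot be told apart.

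Values are log2 signals scaled to each array: the log2 of the scanner's background-subtracted intensity minus the log2 of that array's 75th percentile, so that 0 stands for a probe as bright as the 75th percentile. Differences are H19 KO minus wildtype on that log2 scale with the standard error (SE) of the fit, and 3 arrays stand behind each genotype. The test was limma across all 21888 genes with Benjamini-Hochberg adjustment and a threshold of 0.05.

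The arrays held between 48.8% and 58.6% of their spots well above background and 0 saturated spots, and any 2 arrays correlated at 0.981 to 0.990 whether they shared a genotype or not. H19, the deleted long non-coding RNA, was at -5.97, -6.72 and -6.28 in H19 KO arrays, where it was not well above background, and at 1.41, 0.46 and 0.53 in wildtype arrays. This amounted to at least 32.7-fold more signal in wildtype arrays (adjusted p = 0.00236), so the arrays matched their genotype labels. All 13 cardiomyocyte marker genes were well above background on every array. Over all genes 7 of 21888 passed the threshold, 0.032%, of which 6 were lower in H19 KO arrays, 0.0274%, and the median difference was -0.06.

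None of the 31 measured macrophage genes passed the adjusted threshold, with adjusted p between 0.622 and 0.9997, and 1 of them had an unadjusted p under 0.05, towards lower signal in H19 KO arrays, where 7.94% of all genes had such a p and 6.95% had it in that direction. By the sign of the difference alone, 31 of the 31 were lower in H19 KO arrays, a sign that 63.7% of all genes shared. Their differences ran from -1.04 for Cd52 to -0.08 for Cd14, with a median of -0.52, or 1.43-fold lower. That median lay at the 14.9th percentile of the differences of all genes. A difference of at least 1.5-fold towards lower signal was seen in 14 of the 31 genes, against 12.4% of all genes. The 14 were spread over all 6 role groups described below, from the leukocyte surface to the scavenging receptors.

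**Figure D1:**
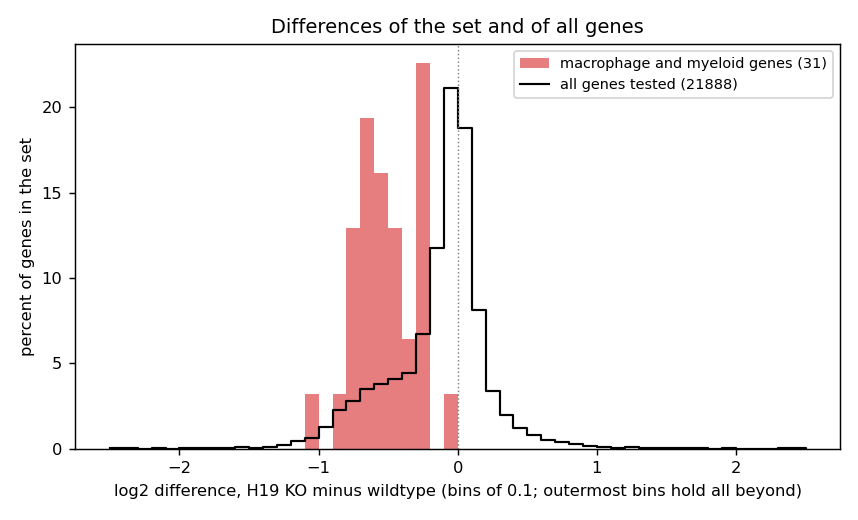
Distribution of the log2 difference, H19 KO minus wildtype (x axis, bins of 0.1), for the 31 measured macrophage and myeloid genes (red bars) and for all 21888 genes tested (black outline), each as a percent of its own set (y axis). The red bars lie left of 0, between -1.04 and -0.08, while the outline peaks near its median of -0.06 and has a tail on the left that covers the same range.

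The sign depended on how the arrays were scaled. With each array scaled to the median of all its probes, the median difference of all genes moved by 0.42 to 0.36, the median of the macrophage genes was -0.10, and 20 of the 31 were lower in H19 KO arrays, where 18.7% of all genes were. Relative to the median of all genes the set stood at -0.46 under both scalings. Each scaling subtracts a constant from an array, so this equality follows from arithmetic and is no separate result. With quantile normalization its median was -0.46 and 30 of 31 genes were lower, against 54.0% of all genes.

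The 3 H19 KO arrays did not behave alike, and most of the genes placed them in a similar order. Averaged over the 31 genes, each set to its own mean over the 6 arrays, the log2 signal was -0.67, 0.37 and -0.46 in H19 KO arrays 1, 2 and 3 and 0.04, 0.17 and 0.56 in wildtype arrays 1, 2 and 3. H19 KO arrays 1 and 3 both lay below all 3 wildtype arrays for 27 of the 31 genes, a pattern found in 14.3% of all genes; the exceptions were Lyz1, Cd84, Itgam and Cd14. H19 KO array 2 lay above the other two H19 KO arrays for 29 of the 31 genes, against 29.3% of all genes. It stood inside the wildtype range for 21 genes (41.2% of all genes), above it for 8 (16.2% of all genes) and below it for 2, Cd52 and Cd84 (42.6% of all genes). Taken singly, array 1 was below all wildtype arrays for 29 of the 31 genes, array 2 for 2 and array 3 for 28, against 24.6%, 42.6% and 34.6% of all genes. The genotypes therefore overlapped for 30 of the 31 genes. Cd52 was the 1 gene with all H19 KO arrays below all wildtype arrays, an arrangement that 8.67% of all genes had. None had all H19 KO arrays above all wildtype arrays, against 1.83% of all genes, and 10.5% of all genes did not overlap in either direction.

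With each array scaled to its median probe, 1 of the 31 genes had H19 KO arrays 1 and 3 below all wildtype arrays, against 4.36% of all genes, and with quantile normalization 25 had, against 11.3% of all genes. The high standing of array 2 among the H19 KO arrays was found for 29 of 31 genes under each of the 4 other processings tried. The share of all genes was between 23.0% and 34.3% under these. H19 KO array 1 was the lowest of the 6 arrays for 23 of the genes (14.0% of all genes) and H19 KO array 3 for 7 (19.5% of all genes). Wildtype array 3 was the highest for 18 (16.1% of all genes), and it lay above the other wildtype arrays for 26, against 37.6% of all genes. The spread between arrays was wider among H19 KO than among wildtype arrays for 26 of the 31 genes, against 52.7% of all genes, with a median SD of 0.61 among H19 KO arrays and 0.32 among wildtype arrays; over all genes both medians were 0.22.

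**Figure D2:**
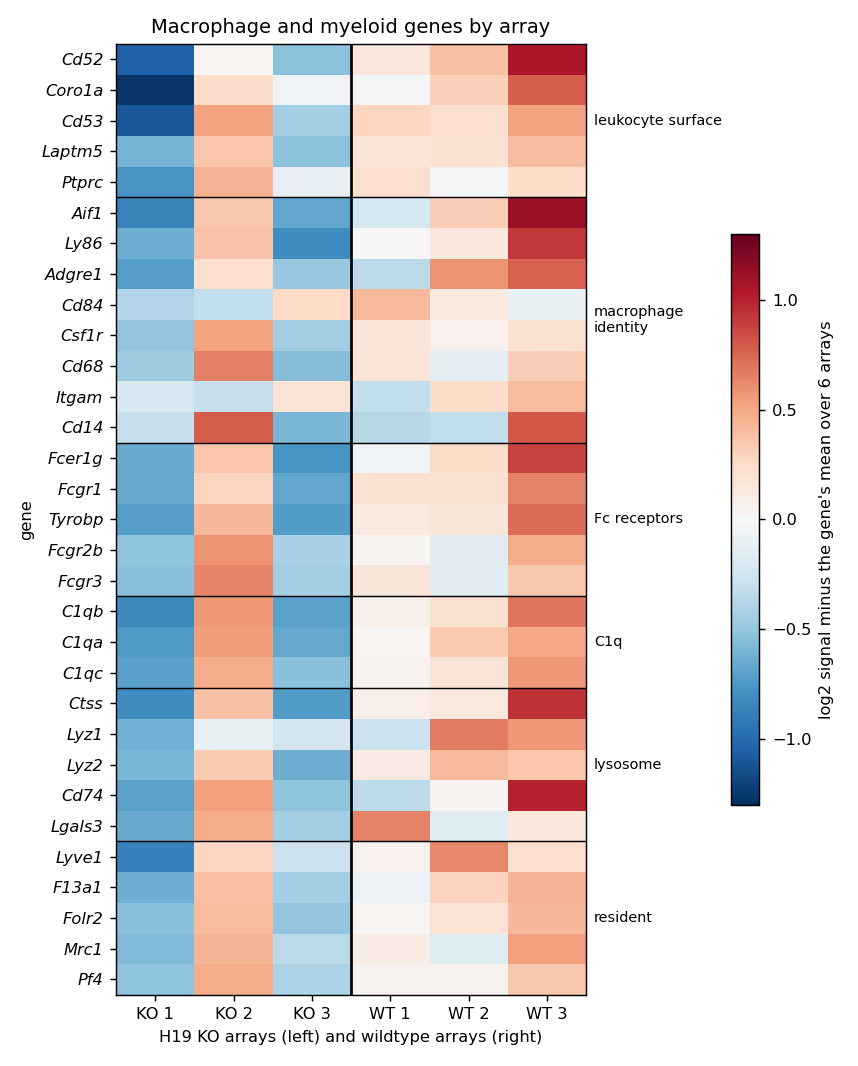
Log2 signal of each measured macrophage and myeloid gene (rows, grouped by role) on each array (columns, H19 KO on the left and wildtype on the right), shown as the difference from that gene's own mean over the 6 arrays, with red above and blue below the mean. The columns of H19 KO arrays 1 and 3 are blue for nearly all rows, and H19 KO array 2 shows the red shades seen in wildtype arrays.

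The share of spots well above background moved with this order: it was 48.8%, 58.6% and 51.2% on H19 KO arrays 1, 2 and 3, and 54.5%, 55.3% and 55.4% on wildtype arrays 1, 2 and 3. Its part in the result was not tested. All 31 genes were well above background on all 6 arrays.

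Leaving out H19 KO array 2 moved the median of the set to -0.84, and 23 of the 31 genes then had an unadjusted p under 0.05, with 0 past the adjusted threshold. Over all genes 6.13% had such a p and the median was -0.04. Without H19 KO array 1 the median of the set was -0.28 and 29 of 31 genes were lower, against 71.8% of all genes. In that fit 0 of the 31 genes had an unadjusted p under 0.05, against 6.00% of all genes. The files place replicate 1 of each genotype on one slide and replicates 2 and 3 on another. Within slide 1 the median was -0.69, and within slide 2 it was -0.40, with 29 of 31 genes lower in each, against 51.5% of all genes in slide 1 and 71.5% in slide 2.

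**Figure D3:**
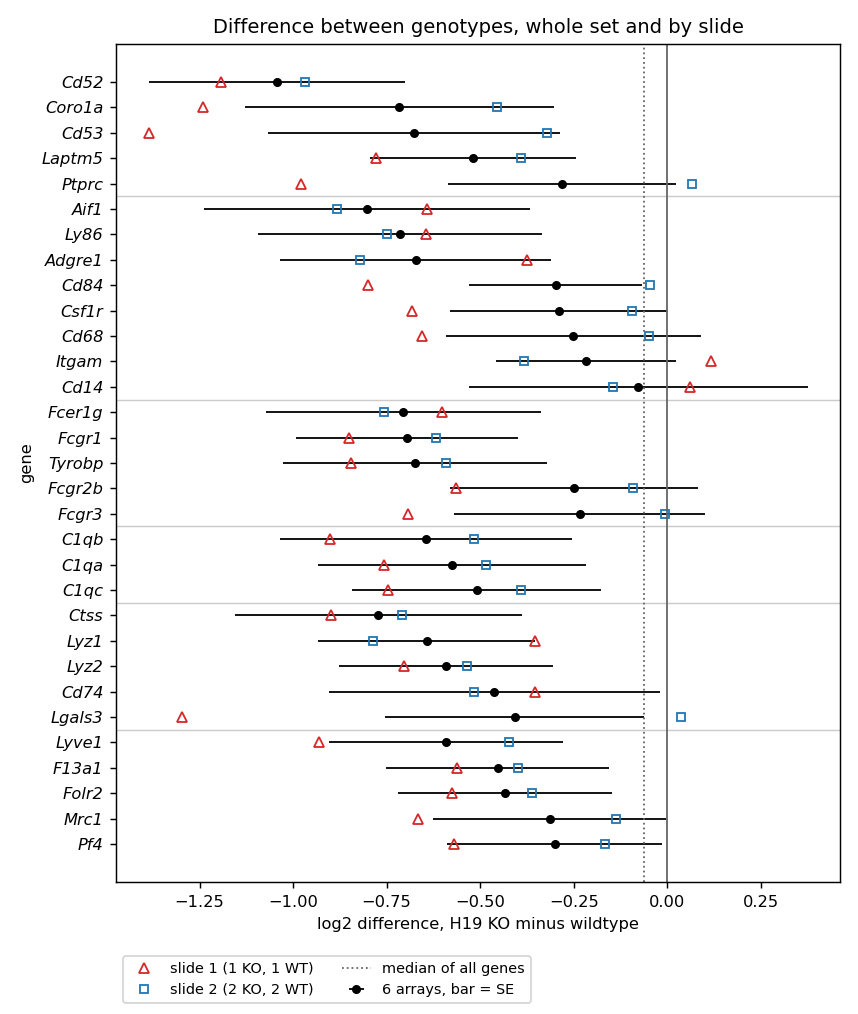
Log2 difference, H19 KO minus wildtype (x axis), of the 31 measured genes (rows, grouped by role), with black dots and bars for the 6-array difference and its SE, red triangles for slide 1 (1 array per genotype) and blue squares for slide 2 (2 arrays per genotype). All black dots lie left of 0; on single slides Ptprc and Lgals3 (slide 2) and Cd14 and Itgam (slide 1) lie right of it.

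Among the leukocyte surface and cytoskeleton genes, 5 of 5 were lower by the sign of the difference, against 63.7% of all genes. Their median was -0.68. For 1 of them all H19 KO arrays lay below all wildtype arrays, against 8.67% of all genes. Cd52 encodes a small lipid-anchored glycoprotein of lymphocytes and monocytes. It was at -2.27, -1.19 and -1.74 in H19 KO arrays, against -1.08, -0.83 and -0.16 in wildtype arrays. All 3 H19 KO arrays lay below the lowest wildtype array, the nearest pair being H19 KO array 2 and wildtype array 1. The difference of -1.04 (SE 0.34, 2.06-fold lower) had the smallest p of the set, unadjusted 0.0190, and an adjusted p of 0.622; 629 genes of the whole table had a p as small or smaller.

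Ptprc encodes CD45, the phosphatase carried by all white blood cells. Its signal was -2.88, -1.66 and -2.21 in H19 KO arrays and -1.90, -2.14 and -1.87 in wildtype arrays, so H19 KO array 2 was the highest of all 6. It differed by -0.28 (SE 0.30, adjusted p = 0.966). Laptm5, a lysosomal membrane protein of blood cells that lowers receptor levels at the cell surface, was at -3.42, -2.45 and -3.35 in H19 KO arrays and at -2.64, -2.61 and -2.41 in wildtype arrays. Its wildtype arrays stood close together with H19 KO array 2 among them, and the difference was -0.52 (SE 0.28, adjusted p = 0.676). Cd53, a tetraspanin of leukocytes, differed by -0.68 and Coro1a, an actin-binding protein of blood cells, by -0.72.

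The 8 macrophage receptor and identity genes had a median of -0.29, and all 8 were lower by sign, against 63.7% of all genes. With the mean of a gene's probes in place of the brightest probe their median was -0.64. That mean gives equal weight to dimmer second probes, some of them not well above background on every array. Csf1r moved the other way, to -0.09. Csf1r encodes the receptor for the growth factors CSF1 and IL-34. Its signal was 3.83, 4.87 and 3.89 in H19 KO arrays, against 4.51, 4.40 and 4.54 in wildtype arrays. The wildtype arrays stood close together, with H19 KO array 2 above them and the other two below, and the difference was -0.29 (SE 0.29, adjusted p = 0.940).

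Adgre1 encodes the adhesion G protein-coupled receptor by which mouse macrophages are usually recognised. It was at 1.65, 2.58 and 1.87 in H19 KO arrays and at 2.03, 2.96 and 3.14 in wildtype arrays. The second H19 KO array lay between wildtype arrays 1 and 2, and the difference was -0.67 (SE 0.36, adjusted p = 0.680). Cd68, a glycoprotein of macrophage lysosomes, was at 0.68, 1.82 and 0.60 in H19 KO arrays and at 1.34, 1.03 and 1.48 in wildtype arrays. Here H19 KO array 2 exceeded every wildtype array, and the difference was -0.25 (SE 0.34, adjusted p = 0.9997).

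Ly86, also called MD-1, partners the Toll-like receptor relative Cd180. It was at -0.73, 0.28 and -0.91 in H19 KO arrays and at -0.08, 0.05 and 0.83 in wildtype arrays, with H19 KO array 2 between wildtype arrays 2 and 3 (difference -0.72, SE 0.38, adjusted p = 0.676). Aif1, the calcium-binding protein known as Iba1, differed by -0.80 (SE 0.43). The others were Cd84, an adhesion receptor of the SLAM family, at -0.30, Itgam at -0.22, and Cd14, the co-receptor for bacterial lipopolysaccharide, at -0.08 (SE 0.45). Cd14 was as high in H19 KO array 2 (1.69) as in wildtype array 3 (1.71), and the other 4 arrays lay between 0.31 and 0.60.

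Itgam encodes CD11b, an integrin chain of macrophages and neutrophils, and was measured by 3 probes, which gave differing values. The brightest begins with 10 CA repeats, a run of 20 bases, and its sequence is shown for that reason, with the run in capitals. The first 30 bases of this probe (chr7:135261755-135261814, plus strand), and the whole of the second probe (chr7:135212140-135212199) and the third (chr7:135260275-135260334), in mm9 coordinates, read as follows.
Itgam probe 1, first 30 bases: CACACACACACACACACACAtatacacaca
Itgam probe 2: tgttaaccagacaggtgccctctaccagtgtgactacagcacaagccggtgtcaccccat
Itgam probe 3: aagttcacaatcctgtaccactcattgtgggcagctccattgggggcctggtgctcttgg

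The probe with the CA run gave 3.48, 3.38 and 3.86 in H19 KO arrays and 3.36, 3.92 and 4.10 in wildtype arrays. It was the 1 probe among the set's tested probes whose lowest array was a wildtype array. The second probe gave -3.44, -4.01 and -3.57 in H19 KO arrays and -1.87, -2.70 and -3.68 in wildtype arrays. It differed by -0.92 (SE 0.44), against -0.22 (SE 0.24) for the first. The third was too dim to be well above background on any of the 6 arrays. A run of at least 8 CA repeats was present in the probes of 107 tested genes, whose median difference was 0.07, and 1 of these genes was in the set. Whether signal of the first probe comes from transcripts of other genes was not tested.

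Another 6 genes of the set had more than 1 probe. Of the 16 probes of these 7 genes, 15 were bright enough to be tested and 14 of the 15 were lower in H19 KO arrays. The 15 include the brightest probes, already counted above. Of the 8 further probes 7 were lower by sign, where 63.7% of all genes were. The exception was the third probe of Csf1r, which was at -2.59, -1.77 and -2.16 in H19 KO arrays and at -2.46, -2.46 and -2.30 in wildtype arrays. It differed by 0.23 (SE 0.23), whereas the other two probes of Csf1r differed by -0.29 (SE 0.29) and -0.22 (SE 0.26). All 3 probes placed H19 KO array 2 above the other H19 KO arrays. Adgre1 gave -0.67 and -0.80 with its probes, Laptm5 -0.52 and -0.41, F13a1 -0.45 and -0.79, Cd68 -0.25 and -0.81, and Cd84 -0.30 and -1.40. The second probes of Cd68, F13a1 and Laptm5 were well above background on 2 of 3 H19 KO arrays, and that of Cd84 on 1 of 3.

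**Figure D4:**
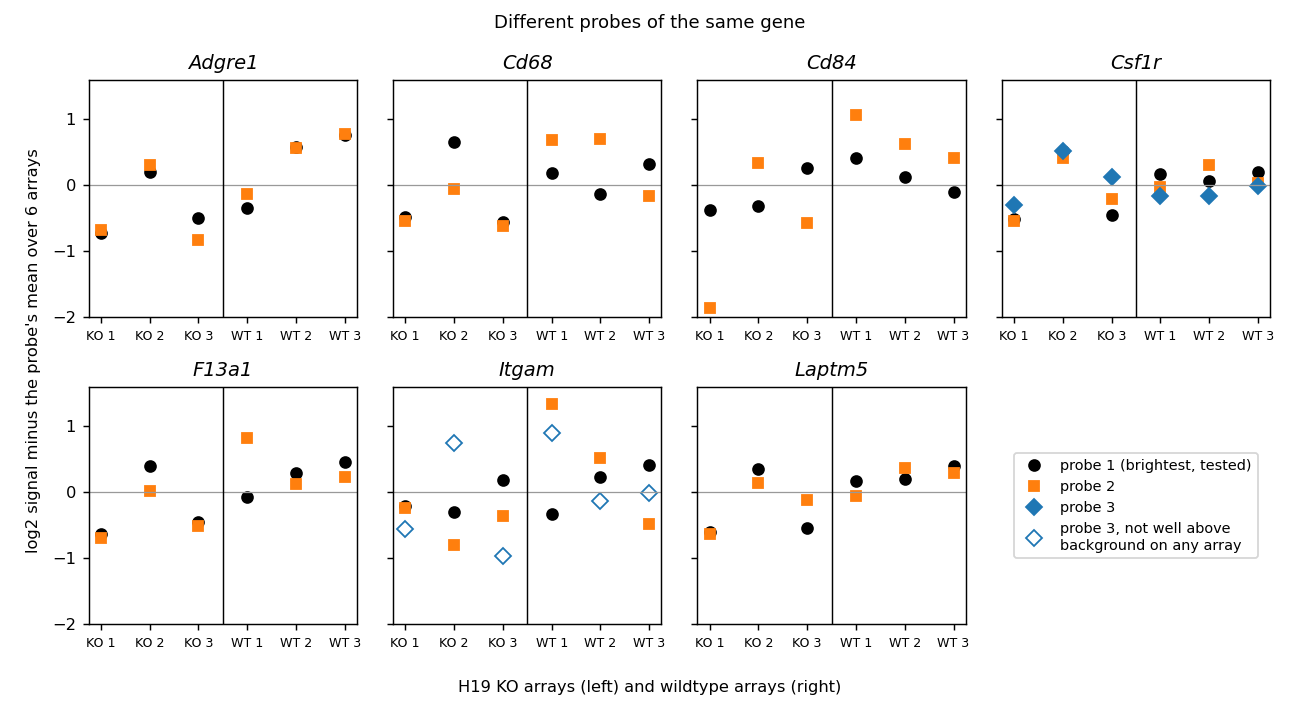
Log2 signal of each probe of the 7 genes with more than 1 probe (panels), as the difference from that probe's own mean over the 6 arrays (y axis), on the H19 KO arrays (left) and the wildtype arrays (right); black circles mark the brightest probe, which was the one tested. The probes of Adgre1 and Laptm5 keep a similar order over the arrays, and the second probe of Itgam departs from the first on wildtype arrays 1 and 3.

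The 5 Fc receptor and adaptor genes had a median of -0.68. Fcgr1 encodes the high-affinity receptor for immunoglobulin G. It was at -2.99, -2.06 and -3.02 in H19 KO arrays, against -2.14, -2.15 and -1.69 in wildtype arrays. H19 KO array 2 stood just above the lower pair of wildtype arrays, and the difference of -0.70 (SE 0.30, adjusted p = 0.627) was second in the set by p.

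Fcer1g, the signalling chain that several Fc receptors share, was at 0.40, 1.41 and 0.28 in H19 KO arrays and at 0.997, 1.28 and 1.92 in wildtype arrays. H19 KO array 2 lay between wildtype arrays 2 and 3, with a difference of -0.71 (SE 0.37, adjusted p = 0.670). Tyrobp, also called DAP12, is the adaptor through which TREM2 and other myeloid receptors signal. It was at 0.56, 1.70 and 0.55 in H19 KO arrays and at 1.41, 1.43 and 2.004 in wildtype arrays, and the difference was -0.68 (SE 0.35, adjusted p = 0.671). The low-affinity receptors were nearer to 0: the inhibitory Fcgr2b differed by -0.25 (SE 0.33) and the activating Fcgr3 by -0.23 (SE 0.34), and both were highest in H19 KO array 2.

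The probe sequences of Tyrobp, of the C1q chains C1qa and C1qb and of Lyz2 are shown as the stretches by which defining transcripts of the set were read. The Tyrobp probe covers 60 bases of transcript mapped over chr7:31200651-31202378 (plus strand), an interval longer than the probe, so that it crosses a splice junction. C1qa was read at chr4:136452409-136452468, C1qb at chr4:136436578-136436637 and Lyz2 at chr10:116719175-116719234, all on the minus strand and in mm9 coordinates. A gene annotation of that build was not used here.
Tyrobp: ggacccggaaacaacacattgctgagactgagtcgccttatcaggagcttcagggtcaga
C1qa: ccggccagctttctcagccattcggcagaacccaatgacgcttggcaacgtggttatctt
C1qb: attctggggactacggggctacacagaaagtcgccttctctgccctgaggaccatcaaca
Lyz2: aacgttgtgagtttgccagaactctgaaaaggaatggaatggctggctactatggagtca

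The probes of the set were distinct from one another. Over all 496 pairs of the 32 representative probes, the longest run of bases shared on the same strand was 10, and between the probes of the near-identical lysozyme genes Lyz1 and Lyz2 it was 6. Probes were compared with probes and not with transcripts, so whether a probe also reads RNA of a related gene was not tested. Their GC content ran between 35% and 55%.

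C1qa, C1qb and C1qc encode the chains of complement C1q, which tissue macrophages make and which tags dying cells and immune complexes. The 3 genes took a similar course over the arrays and had a median of -0.58. C1qa was at 0.40, 1.67 and 0.46 in H19 KO arrays and at 1.16, 1.48 and 1.63 in wildtype arrays. C1qb was at -0.08, 1.31 and 0.05 in H19 KO arrays and at 0.82, 0.95 and 1.44 in wildtype arrays. C1qc was at 1.66, 2.84 and 1.82 in H19 KO arrays and at 2.40, 2.53 and 2.92 in wildtype arrays. In each of them H19 KO arrays 1 and 3 were the lowest of the 6 and H19 KO array 2 was the highest or second highest. The differences were -0.58 (SE 0.36) for C1qa, -0.64 (SE 0.39) for C1qb and -0.51 (SE 0.33) for C1qc, with adjusted p of 0.745, 0.734 and 0.762.

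The lysozyme, lysosome and antigen-handling genes, 5 in number, had a median of -0.59. Lyz2 encodes the lysozyme of macrophages and neutrophils, and Lyz1 the closely related lysozyme of Paneth cells in the gut. Lyz2 was at -1.27, -0.33 and -1.31 in H19 KO arrays and at -0.56, -0.25 and -0.32 in wildtype arrays. The wildtype range held H19 KO array 2, and the other two H19 KO arrays lay below it, with a difference of -0.59 (SE 0.29, adjusted p = 0.645). Lyz1 was at 2.48, 3.01 and 2.87 in H19 KO arrays and at 2.84, 3.79 and 3.68 in wildtype arrays, where array 1 was low. Its difference was -0.64 (SE 0.29, adjusted p = 0.636). Whether the brighter Lyz1 probe also reads Lyz2 RNA was not tested.

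Ctss, the cysteine protease cathepsin S that trims the invariant chain, was at 1.89, 3.08 and 1.97 in H19 KO arrays and at 2.79, 2.83 and 3.64 in wildtype arrays (difference -0.77, SE 0.38, adjusted p = 0.654). Cd74 is that invariant chain, the chaperone of MHC class II. It was at 1.52, 2.75 and 1.69 in H19 KO arrays and at 1.87, 2.26 and 3.22 in wildtype arrays, and differed by -0.46 (SE 0.44, adjusted p = 0.922). For both genes H19 KO array 2 ranked second of the 6 arrays, after wildtype array 3. Lgals3, the secreted lectin galectin-3, which injured hearts are known to make, differed by -0.41 (SE 0.35).

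The genes of resident, scavenging macrophages, 5 measured of 6, had a median of -0.43. Mrc1 encodes CD206, the mannose receptor. It was at 1.32, 2.34 and 1.54 in H19 KO arrays and at 1.99, 1.73 and 2.43 in wildtype arrays, and differed by -0.31 (SE 0.31, adjusted p = 0.936). Lyve1, a hyaluronan receptor found on a subset of resident cardiac macrophages and on lymphatic endothelium, was at 1.11, 2.26 and 1.70 in H19 KO arrays and at 2.04, 2.61 and 2.19 in wildtype arrays. Only wildtype array 2 exceeded H19 KO array 2, and the difference was -0.59 (SE 0.31, adjusted p = 0.676). F13a1, the A chain of coagulation factor XIII, differed by -0.45 (SE 0.30), the folate receptor Folr2 by -0.43 (SE 0.29), and the chemokine Pf4, made by megakaryocytes and by resident macrophages, by -0.30 (SE 0.29).

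Much of the spread was common to the genes of the set. Over the 6 arrays the median SD of the 31 genes was 0.52, and it was 0.23 once the mean of the other 30 genes on the same array was subtracted. The SD was smaller after that step for 29 of the 31 genes; for 21 of them the remaining SD was under 50% of the original. It was larger for Itgam and Cd84. C1qc followed the mean most closely, with an SD of 0.066 left. These are descriptions of 6 arrays, on which all genes share the same RNA and scaling.

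After that subtraction the genotypes did not overlap for 5 genes, which are named here because of their values. Such a relative separation was found in 0.242% of all genes towards lower and 5.37% towards higher signal in H19 KO arrays. For all genes, too, the mean of this set was subtracted, and that mean was lower in H19 KO arrays 1 and 3. The step itself therefore shifts other genes towards higher signal in H19 KO arrays, and these shares are no yardstick for the set. Because each gene is set against the others, some stand higher where others stand lower. Cd52 was still lower in all 3 H19 KO arrays than in any wildtype array, with a mean difference of -0.55, and so was Fcgr1, with -0.19. Relative to the other genes of the set, Mrc1 (0.20), Pf4 (0.22) and Fcgr2b (0.27) stood higher in all 3 H19 KO arrays than in any wildtype array. Cd14 had the widest positive value, 0.45, with overlapping arrays. The other 25 genes overlapped too.

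Promoters of 24 of the 32 genes were found in the RefSeq table of GRCm38.p6, as 29 windows of 250 bases before to 50 bases after a transcription start. They were searched on both strands for GAGGAA, the core bound by the myeloid ETS factor PU.1, and for the longer GAGGAAGT, which contains it. The core was present in 17 of the 29 windows (58.6%), against 28.3% of the 32851 windows of all genes. The longer form was present in 5 of 29 (17.2%), against 3.20%, and these 5 are shown, up to 30 bases each, in the direction of the gene, with the motif in capitals (ACTTCCTC where it lies on the opposite strand).
Ctss, chr3:95526773-95526802, plus strand, after the start: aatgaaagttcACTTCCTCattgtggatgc
Cd53, chr3:106790125-106790154, minus strand, after the start: cactcagtctcACTTCCTCactcttctcgc
C1qc, chr4:136893091-136893120, minus strand, 187 bases before the start: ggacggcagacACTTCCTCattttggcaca
Pf4, chr5:90772414-90772434, plus strand, 2 bases before the start: ttctgcagagcACTTCCTCat
F13a1, chr13:37049181-37049210, minus strand, after the start: cgagtccttttGAGGAAGTacccagaggca
In these labels, after the start means that the motif ends past it. The Ctss motif begins before the start and ends after it, so it spans the start. A match is a description of letters. Binding was not measured, and Spi1, the gene of PU.1, was not bright enough to be tested. The 5 genes differed by between -0.77 (Ctss) and -0.30 (Pf4), inside the range of the set.

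A second list of 37 macrophage genes that are not in the set was read beside it, and 34 of them were measured. By sign 26 were lower and 8 higher in H19 KO arrays, where 63.7% of all genes were lower. The median was -0.40, and 0 passed the adjusted threshold. The genes named below were taken by smallest p and are all lower. At an unadjusted p under 0.05, 4 were lower, against 6.95% of all genes. Among the 4 were the Src-family kinase Fgr (difference -0.74, SE 0.17), the complement receptor C5ar1 (-0.76, SE 0.24) and the inhibitory receptor Pirb (-0.86, SE 0.33). Of the 34 genes, 8 were not well above background on every array, and Fgr among these could pass the filter through the wildtype arrays alone. C5ar1 and C3ar1 were each well above background on 1 of 3 H19 KO and 2 of 3 wildtype arrays. Fgr was at -4.29, -3.95 and -4.26 in H19 KO arrays, where it was well above background on 1 of 3, and at -3.23, -3.45 and -3.60 in wildtype arrays. Others with small p were the complement receptor C3ar1 at -1.18 (SE 0.54) and Itgb2, the integrin chain that pairs with Itgam, at -0.66 (SE 0.31). Averaged over its 34 genes this list stood at -0.59, 0.41 and -0.35 in H19 KO arrays 1, 2 and 3 and at 0.18, -0.01 and 0.36 in wildtype arrays, so that H19 KO array 2 was again the highest of its genotype.

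Of 12 growth factor and transcription factor genes of the myeloid lineage, 11 were measured. By sign 7 were lower, against 63.7% of all genes, and 0 passed, with a median of -0.12. Runx1 differed by -0.67 (SE 0.29), the transcription factor Maf by -0.38 (SE 0.20) and the cytokine receptor chain Csf2rb by -0.68 (SE 0.39).

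Marker lists of other cells were read in the same way, because several of the 32 genes are shared with other blood cells. Over all genes 63.7% were lower by sign. Of 12 neutrophil markers 7 were measured, and 5 of these were not well above background on every array, so that their differences rest in part on dim signal. All 7 were lower by sign, with a median of -0.92 and 0 passing. The smallest p were those of Mmp8 at -0.69 (SE 0.26) and Cxcr2 at -0.99 (SE 0.42), each well above background on 1 of 3 H19 KO and 3 of 3 wildtype arrays, and of Elane at -0.33 (SE 0.14). The mean of the 7 genes was -1.25, 0.56 and -0.74 in H19 KO arrays and 0.93, -0.46 and 0.97 in wildtype arrays, and the defining markers Ly6g, Ngp, Mpo, Retnlg and Mmp9 were too dim to be tested. The sum of the scaled signals of the 7 genes, on a linear scale where 1 is an array's 75th percentile, ran between 38.4 and 51.5 in H19 KO arrays and between 42.0 and 49.7 in wildtype arrays, and Csf3r alone made up between 93.7% and 98.9% of it. Dendritic cell and MHC class II genes were lower in 5 of 7 measured of 12, with a median of -0.36 and a summed signal of 28.2 to 56.1 in H19 KO arrays and 31.3 to 74.8 in wildtype arrays; Flt3, Itgax, Xcr1, Cd209a and Clec9a were too dim. H2-DMa differed by -0.60, H2-Aa by -0.45 and H2-DMb1 by -0.43, and like Cd74 these were highest in wildtype array 3. The 5 lower genes were all H2 genes. The 2 higher ones were Ciita at 0.60 (SE 1.13) and the dendritic cell marker Zbtb46 at 0.15 (SE 0.29). Lymphocyte markers were lower in 5 of 8 measured of 13, with a median of -0.14 and a summed signal of 2.21 to 4.19 in H19 KO arrays and 2.41 to 3.85 in wildtype arrays; Lck, a kinase of T cells, differed by 2.68 (SE 0.89) but was well above background on 3 of 3 H19 KO and 1 of 3 wildtype arrays, Cd247 differed by -0.53 (SE 0.18) and Nkg7 by -0.21 (SE 0.16), and Cd3d, Cd8a, Cd79a and Ms4a1 were among those too dim.

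Fibroblast markers went the other way by sign: 15 of 15 were higher in H19 KO arrays, where 63.7% of all genes were lower. The 15 had a median of 0.55 with 0 passing, led by Dcn at 0.64 (SE 0.26), Dpt at 0.93 (SE 0.39) and Gsn at 0.47 (SE 0.22). Their summed signal ran between 300.2 and 639 in H19 KO arrays and between 199 and 404 in wildtype arrays. Their mean over genes was -0.35, 1.18 and 0.04 in H19 KO arrays and 0.36, -0.38 and -0.86 in wildtype arrays. H19 KO array 2 was thus the highest of its genotype for fibroblast and macrophage genes alike, and wildtype array 3 was the lowest of all for fibroblast genes and the highest for macrophage genes. Within slide 1 the fibroblast median was -0.76 and within slide 2 it was 1.22. Endothelial markers had a median of 0.05 (14 genes), smooth muscle and pericyte markers 0.06 (10 genes). Cardiomyocyte markers had a median of -0.05 over 13 genes, and their mean ran between -0.21 and 0.09 in H19 KO arrays, with array 2 the lowest, and between 0.00 and 0.07 in wildtype arrays. Haemoglobin alpha, Hba-a1, a marker of remaining red cells, was at 0.56, 6.20 and 2.83 in H19 KO arrays and at 5.70, 1.91 and 1.56 in wildtype arrays, so that it was higher in H19 KO array 2 than in arrays 1 and 3 as well. The part of other cells and of blood in the macrophage signal was not tested.

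**Figure D5:**
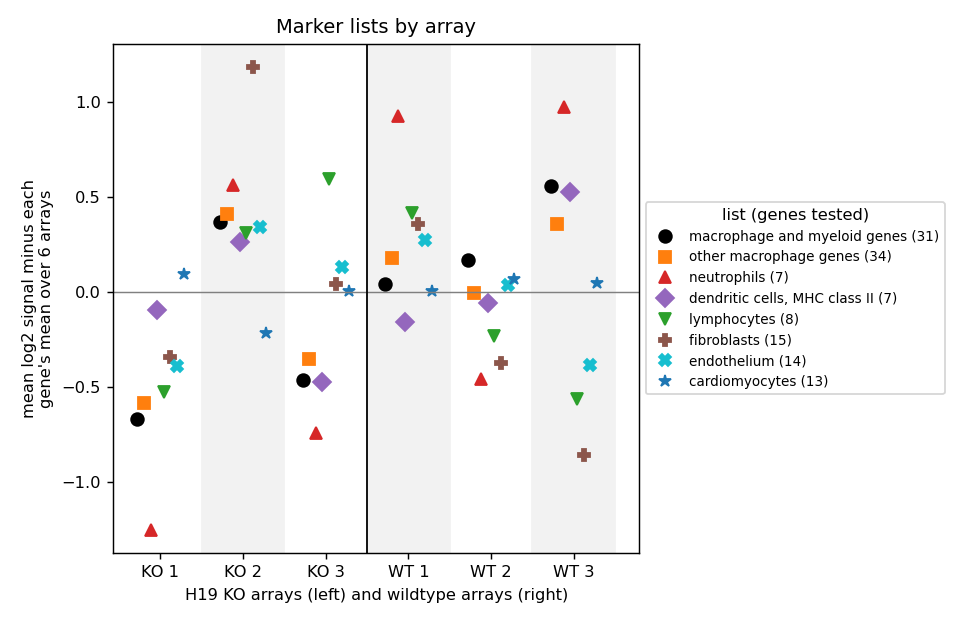
Mean log2 signal of 8 marker lists (symbols, with the number of genes tested), each gene set to its own mean over the 6 arrays (y axis), on the H19 KO arrays (left of the line) and the wildtype arrays (right). The 31 macrophage and myeloid genes stand at -0.67, 0.37 and -0.46 in H19 KO arrays and at 0.04, 0.17 and 0.56 in wildtype arrays, the other macrophage genes take a similar course, and cardiomyocyte genes stay between -0.21 and 0.09.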

How the data were processed

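Agilent Feature Extraction 10.7.3.1 wrote the scanner files, per the file headers: each spot has a processed intensity, from which background was subtracted, with no scaling across arrays, and flags for signal over background, saturation and outliers. The authors' deposited table holds intensity on a linear scale, quantile-normalized by a tool that the sources used here do not name: its columns rank the spots of an array exactly as the processed intensity does (rank correlation 1), share one distribution and have medians of 78.0 to 78.9 over non-control spots. Probe coordinates follow mm9, per the file headers.

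Control and outlier spots were dropped and repeated spots of a probe averaged, log2 was taken and each array's 75th percentile (intensities of 774 to 1152) subtracted. A probe was kept where 3 or more of the 6 arrays marked it well above background (29990 probes), with 1 probe per gene by highest mean (21888 genes). Names were updated through the RefSeq table of GRCm38.p6, used for names and promoters only. The genotypes were compared by limma (version 3.58.1, R 4.3.3; lmFit, then eBayes), two-sided, with Benjamini-Hochberg adjustment over all genes; every adjusted p is from this test. With 3 arrays against 3, exact permutation cannot reach a p below 0.10. The procedure was tested on simulated data. The bound for H19 is the wildtype mean over a floor for each H19 KO array, its dimmest signal still well above background, or the signal of the H19 probe where that was higher. The 32 genes, the other lists and the role groups were chosen with earlier results of these data known, so lists are described without a test. Values on every array are given for the 10 genes with the smallest p and for 1 to 3 defining genes of each role group. They are also given for genes whose probes differ in sign. Of the other lists, up to 3 genes by p were described, or 6 for the other macrophage genes. Fcgr2b, Cd14, Pf4, Itgam, Hba-a1, Ciita and Zbtb46 were described beyond this after their values were seen. Alternatives were other background correction, scaling, filters, probe rules, variance prior, blocks by replicate number or slide, single slides, and leaving out each array. Some members of the other lists are not reported here. The number of arrays limits the precision.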

Additional observations from a re-analysis of the deposited data

How the results depend on the processing

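In every setting that gave a test, 0 macrophage and myeloid genes passed the adjusted threshold. At an unadjusted p under 0.05, 1 passed in the main fit, against 7.94% of all genes. That count was 0 with arrays scaled to their median probe, against 8.14% of all genes. Without H19 KO array 1 it was also 0, against 6.00% of all genes. It was highest, 23, without H19 KO array 2, against 6.13% of all genes. The count over all genes, 7, was 3 with quantile normalization and 3 with the authors' deposited values, 118 when arrays were scaled to their median probe, 1 without a filter on dim probes, 1 with slide as a block, 1 within slide 2, between 1 and 10 when 1 array was left out, and 1739 at an unadjusted p. The median of the set ran between -0.84 and -0.28 when 1 array was left out. Scaling to the median of all probes gave 20 genes lower by sign and 1 with H19 KO arrays 1 and 3 below all wildtype arrays. It also turned the sign of Cd14 (0.35), Itgam (0.21), Fcgr3 (0.19), Fcgr2b (0.18), Cd68 (0.17), Ptprc (0.14), Csf1r (0.13), Cd84 (0.13), Pf4 (0.12), Mrc1 (0.11) and Lgals3 (0.017), because the median of all genes moved up by 0.42. Single signs also turned for Cd84 with quantile normalization (0.034) and the deposited values (0.036), for Ptprc (0.067) and Lgals3 (0.037) within slide 2, for Cd14 (0.060) and Itgam (0.12) within slide 1, and when 1 array was left out, where Cd14 ran between -0.49 and 0.30 and Ptprc between -0.58 and 0.032; the cause was not tested.

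The labels number the replicates 1 to 3 in each genotype. Deviations from the genotype means correlated at -0.22, -0.05 and 0.04 between arrays of the same number, and no array correlated best with its own number. These values gave no sign of pairing by number, although replicate 1 of each genotype also shares a slide. With 3 arrays per genotype they cannot settle whether the samples were paired. With replicate number as a block, 1 gene passed in all, 0 of the set did, and 5 of the set had an unadjusted p under 0.05, against 9.72% of all genes. Slide 1 holds 1 array per genotype and gives no test. Dim signal limits Cd163 and the second probes of several genes, and 3 arrays per genotype limit what can be detected.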
